A study of Mus musculus with 10 samples.

Results

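Barcodes of SW1 tumors that carry RNA of the hypoxia genes Car9 and Pgf are described here. Car9 encodes a carbonic anhydrase of the cell surface and Pgf encodes placental growth factor, a ligand of the VEGF family. A barcode, which stands for 1 droplet and in most cases 1 cell, was chosen by 6 conditions on its unique molecular identifiers (UMIs), each of which marks 1 captured RNA molecule. It held at least 1000 genes and at most 10% of its UMIs were mitochondrial. It had no UMI of Ptprc, which encodes CD45, and at most 5 UMIs of the macrophage genes C1qa, C1qb and C1qc together. It had at least 2 UMIs of Car9 and Pgf together, and fewer than 8 UMIs of the cell cycle genes Mki67, Top2a, Ube2c and Cdk1 together. These conditions were met by 3321 of the 41936 barcodes in 5 gene expression libraries, and they are called Car9/Pgf barcodes below. They were 3321 of 12163 barcodes that met the other 5 conditions, which are called non-cycling tumor-type barcodes.

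The study asked how L-fucose (L-fuc), a sugar given in the drinking water, alters immune cells of tumors, above all dendritic cells. The tumors were grown from SW1, a melanoma line of the mouse, under the skin of female C3H/HeJ hosts aged 4 to 6 weeks, and the labels give 10 days of growth before treatment began, where the study's methods give a longer time. The 5 pools of tumors were pretreatment at day 0, control water for 7 days, L-fuc water for 7 days, control water for 21 days and L-fuc water for 21 days, and values below follow this order of libraries. Each pool gave 1 gene expression library and 1 T cell receptor library. The labels give 3 pretreatment animals, and 6 animals per arm in one protocol and 5 in another. They give the dose as 100 mM L-fuc in one protocol and as 100 nM in another. All mice were of 1 strain and carried the same cell line, and no label names a genetic change in the hosts. With 1 library per condition, conditions of the same day were compared without a test, and a fit of treatment over both days, with 1 residual degree of freedom, was not run.

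The labels describe the libraries as sorted CD45+ cells, and their cell line field reads Lymphocytes. Of the barcodes that passed the limits on genes and mitochondrial UMIs, 39.3, 74.0, 52.9, 48.4 and 46.0% had no Ptprc UMI. The Car9/Pgf barcodes numbered 72, 1989, 1113, 98 and 49 in the order of libraries, out of 1725, 20741, 15288, 2754 and 1428 deposited barcodes. Their summed depth was 1149553, 16582049, 16434873, 1960608 and 1398367 UMIs, so the libraries of day 7 are the most precise. Their median depth per barcode was 14712.5, 7747, 14115, 20900.5 and 28073 UMIs. Control day 7 was thus the shallowest library per barcode and the richest in barcodes. The libraries of day 7 shared 433 barcode sequences, 3 of which were Car9/Pgf barcodes in both.

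Cells adapt to low oxygen through hypoxia-inducible factor (HIF). While oxygen is present, prolyl hydroxylases of the Egln family mark the HIF alpha subunits and the Vhl protein sends them for degradation. When oxygen falls, the alpha subunit persists, pairs with Arnt and binds short DNA motifs, the hypoxia response elements. Its targets raise glucose uptake and glycolysis, divert pyruvate from mitochondria, export acid, and recruit vessels through ligands such as Vegfa and Pgf. In solid tumors, Car9 and Slc2a1 are widely used marks of poorly perfused regions. Oxygen itself was not measured in these tumors, so the name hypoxic rests on RNA alone.

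The label of tumor cell was compared with marker genes that the rule did not use. Sox10, a transcription factor of neural crest, Schwann and melanocyte lineages, had a UMI in 83.3, 82.5, 89.9, 96.9 and 95.9% of the Car9/Pgf barcodes. It had one in 60.6, 80.0, 77.9, 83.5 and 81.0% of the Car9/Pgf-free barcodes, which are the non-cycling tumor-type barcodes with no UMI of Car9 or Pgf. In T cell barcodes, which should lack the gene, the share was 0.499, 31.7, 11.3, 1.56 and 2.70%, at the lower median depths given below. On the scale of CPM, which are the UMIs of a gene in a class of barcodes per 1000000 UMIs of that class, Sox10 stood at 358, 332, 357, 477 and 478 CPM in the Car9/Pgf barcodes, at 423, 374, 423, 499 and 401 CPM in the Car9/Pgf-free barcodes and at 0.577, 112, 59.0, 2.01 and 24.1 CPM in T cell barcodes. Both tumor-type classes thus lay above the T cell level in every library, least so in control day 7, and the order of the shares of the 2 classes is not that of their CPM in 4 of 5 libraries. Of 16 Schwann cell and neural crest markers, 14 were high enough to be tested, with a summed level of 3554, 3551, 3825, 2897 and 3142 CPM in the Car9/Pgf barcodes. Fabp7 and Gap43 were at 0. Pigment cell genes were nearly absent, with Tyr and Oca2 at 0, and Pmel and Dct at no more than 2.04 and 1.74 CPM in any library. Of that list of 10 genes, Mitf, Tyrp1 and Gpnmb were tested, with Mitf, a regulator of pigment cells, between 32.9 and 42.6 CPM. The barcodes are therefore called by their rule genes.

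Car9 and Pgf chose the barcodes, so their levels are given without a test. Car9 stood at 272, 376, 382, 274 and 198 CPM in the Car9/Pgf barcodes, and Pgf at 150, 190, 157, 109 and 119 CPM. Car9 alone was found in 1488 barcodes (44.8%), Pgf alone in 433 (13.0%) and both genes in 1400 (42.2%). A total of 857 barcodes had exactly 2 UMIs of the pair and 1503 had 5 or more, with a highest value of 90. The median was 3 UMIs in control day 7 and 6 in L-fuc day 7.

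Free RNA gives UMIs of a gene in droplets of cells that do not express it, and T cells should hold neither Car9 nor Pgf. At least 1 UMI of the pair was found in 3.99, 16.0, 9.61, 3.13 and 8.11% of T cell barcodes, with median depths of 5462, 4999, 5675, 4949 and 11787 UMIs. The share in non-cycling tumor-type barcodes was 31.4, 39.1, 54.9, 43.9 and 48.4%, with median depths of 12580, 6633, 12774.5, 20119.5 and 25614 UMIs. At least 2 UMIs of the pair, the limit of the rule, were found in 3 of 401, 65 of 1089, 69 of 1551, 0 of 64 and 1 of 37 T cell barcodes. Free RNA can thus reach that limit, above all in the libraries of day 7. On the CPM scale, which divides by depth, the pair stood at 10.1, 48.2, 39.2, 4.02 and 5.07 CPM in T cell barcodes and at 133, 177, 264, 112 and 119 CPM in tumor-type barcodes. The tumor-type level was the higher one in all 5 libraries, and the 2 classes were nearest in control day 7.

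T cell receptor contigs were a readout that the rule did not use. A productive contig was found for 11 of 3321 Car9/Pgf barcodes (0.331%, 95% exact interval 0.165 to 0.592%). It was found for 119 of 6974 Car9/Pgf-free barcodes (1.71%, 1.42 to 2.04%) and for 2019 of 3142 T cell barcodes (64.3%, 62.6 to 65.9%). By library, the share in the Car9/Pgf-free barcodes was 10.3, 1.16, 3.00, 0.472 and 0%, so pretreatment day 0 stood apart with 21 of 203 barcodes. The 72, 98 and 49 Car9/Pgf barcodes of pretreatment day 0, control day 21 and L-fuc day 21 had none, and the exact intervals reach up to 4.99, 3.69 and 7.25%. Scrublet, a doublet caller, marked 0, 13, 1, 0 and 0 of the Car9/Pgf barcodes at an assumed rate of 0.08% per 1000 barcodes, and 0, 224, 6, 0 and 0 at a rate of 0.8% per 1000. The share marked in a whole library was set in advance by the assumed rate and the number of barcodes scored. At the lower rate it was under 0.5% in the libraries of day 0 and day 21, which are small, and 1.54% in control day 7.

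The windows of 250 bases before the RefSeq transcription start of 4 genes are shown because the HIF core motif is found in them. The core motif was searched as ACGTG and GCGTG and, for the other strand, as CACGT and CACGC, and matches that overlap count as 1. Sequences run 5′ to 3′ on the strand of the gene in the mouse build GRCm38.p6 (RefSeq), and capitals mark the matches. The windows are chr4:43506776-43507025 (plus strand) for Car9, chr12:85177314-85177563 (minus strand) for Pgf, chr7:138909507-138909756 (minus strand) for Bnip3 and chr4:119108495-119108744 (plus strand) for Slc2a1. Bnip3 encodes a protein of the outer mitochondrial membrane that drives removal of mitochondria, and Slc2a1 encodes the glucose transporter GLUT1.
Car9: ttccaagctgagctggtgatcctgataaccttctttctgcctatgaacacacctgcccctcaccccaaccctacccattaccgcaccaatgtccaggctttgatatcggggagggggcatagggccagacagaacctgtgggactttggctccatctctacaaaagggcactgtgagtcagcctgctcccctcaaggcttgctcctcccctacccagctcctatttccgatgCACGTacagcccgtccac
Pgf: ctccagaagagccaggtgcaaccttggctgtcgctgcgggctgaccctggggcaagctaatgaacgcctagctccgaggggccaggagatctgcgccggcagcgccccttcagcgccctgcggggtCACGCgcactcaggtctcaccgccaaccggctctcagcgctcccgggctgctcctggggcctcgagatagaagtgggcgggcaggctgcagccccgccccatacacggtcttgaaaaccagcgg
Bnip3: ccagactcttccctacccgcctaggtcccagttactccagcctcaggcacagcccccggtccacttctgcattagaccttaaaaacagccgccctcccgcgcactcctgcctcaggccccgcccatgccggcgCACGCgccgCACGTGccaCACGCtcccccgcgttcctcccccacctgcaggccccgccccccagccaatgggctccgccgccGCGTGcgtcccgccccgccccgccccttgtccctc
Slc2a1: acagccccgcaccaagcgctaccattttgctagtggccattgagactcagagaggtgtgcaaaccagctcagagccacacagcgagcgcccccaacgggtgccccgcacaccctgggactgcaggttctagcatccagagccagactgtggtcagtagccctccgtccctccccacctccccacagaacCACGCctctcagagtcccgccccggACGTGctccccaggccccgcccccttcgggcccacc
The windows of Car9 and Pgf held 1 match each, that of Slc2a1 held 2 and that of Bnip3 held 4. The genes themselves lie at chr4:43506966-43513729 (Car9), chr12:85166635-85177790 (Pgf), chr7:138890836-138909519 (Bnip3) and chr4:119108711-119137983 (Slc2a1) in GENCODE vM21. The only match of Car9 lay 18 bases before the RefSeq start. The windows overlap the genes as GENCODE gives them, since the starts differ. Pgf has a second start in the table, whose window held none. A match describes the letters only, since such motifs are common in promoters: 12679 of all 32851 windows of the table held one (38.6%), and 57.6% of the 10823 windows of the genes tested below did.

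The main comparison set the Car9/Pgf barcodes against the Car9/Pgf-free barcodes of the same library, with UMIs summed over each class, so that the 5 libraries serve as replicates of the difference between classes. The Car9/Pgf-free class held 203, 5278, 1202, 212 and 79 barcodes, with median depths of 10939, 6129, 11104.5, 19614.5 and 22088 UMIs. The 10 genes of the rule were left out, as were barcodes with 1 UMI of the pair. By edgeR's quasi-likelihood test with the library as a block, 1698 of 10596 genes were higher in the Car9/Pgf barcodes at an adjusted p under 0.05 (16%) and 1684 were lower (15.9%). The higher genes went in that direction in all 5 libraries for 1517 of 1698, and the lower genes for 1258 of 1684. At least 2-fold differences were 182 genes higher and 165 lower. Log2 fold changes below come from this test with their standard errors, and the median over all genes tested was -0.05. The counts of called genes in each list stand beside these shares of 16% and 15.9%.

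Genes of glucose uptake, mitochondrial removal, oxidative folding and vessel growth were among the 12 with the largest rise, chosen from those of at least 50 CPM that changed the same way in all 5 libraries after TMM scaling. Ero1l, an oxidase of the endoplasmic reticulum that is also a HIF target, stood at 699, 611, 633, 629 and 466 CPM in the Car9/Pgf barcodes and at 105, 141, 107, 62.9 and 56.5 CPM in the Car9/Pgf-free barcodes. The lowest Car9/Pgf value, that of L-fuc day 21, lay above the highest Car9/Pgf-free value. The rise was 7.45-fold (log2 fold change 2.90 ± 0.15). Bnip3 stood at 752, 532, 634, 462 and 474 CPM against 193, 178, 153, 91.1 and 85.0 CPM. Both levels were highest before treatment, no values overlapped, and the rise was 4.71-fold (log2 fold change 2.23 ± 0.11). Ero1l and Bnip3 are part of the name under which the barcodes were proposed, so their values are a description. Both are on the list of HIF targets below, and the counts of that list include them.

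Slc2a1 was not part of the rule or the name. It stood at 358, 211, 267, 280 and 212 CPM in the Car9/Pgf barcodes and at 71.3, 48.8, 45.3, 44.4 and 45.5 CPM in the Car9/Pgf-free barcodes. Pretreatment day 0 was the highest library in both classes, and the groups did not overlap. The rise was 5.86-fold (log2 2.55 ± 0.09, adjusted p = 1.48e-07 by edgeR). Vegfa, the main growth factor of vessels, stood at 83.5, 84.4, 121, 103 and 205 CPM against 24.3, 34.1, 34.2, 17.5 and 23.0 CPM, a rise of 4.39-fold (2.13 ± 0.20, adjusted p = 5.03e-05). L-fuc day 21 stood apart in Vegfa, and 154 of its 287 UMIs came from 1 barcode of 49. The other 4 libraries ranged from 83.5 to 121 CPM, above every Car9/Pgf-free value.

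**Figure D1:**
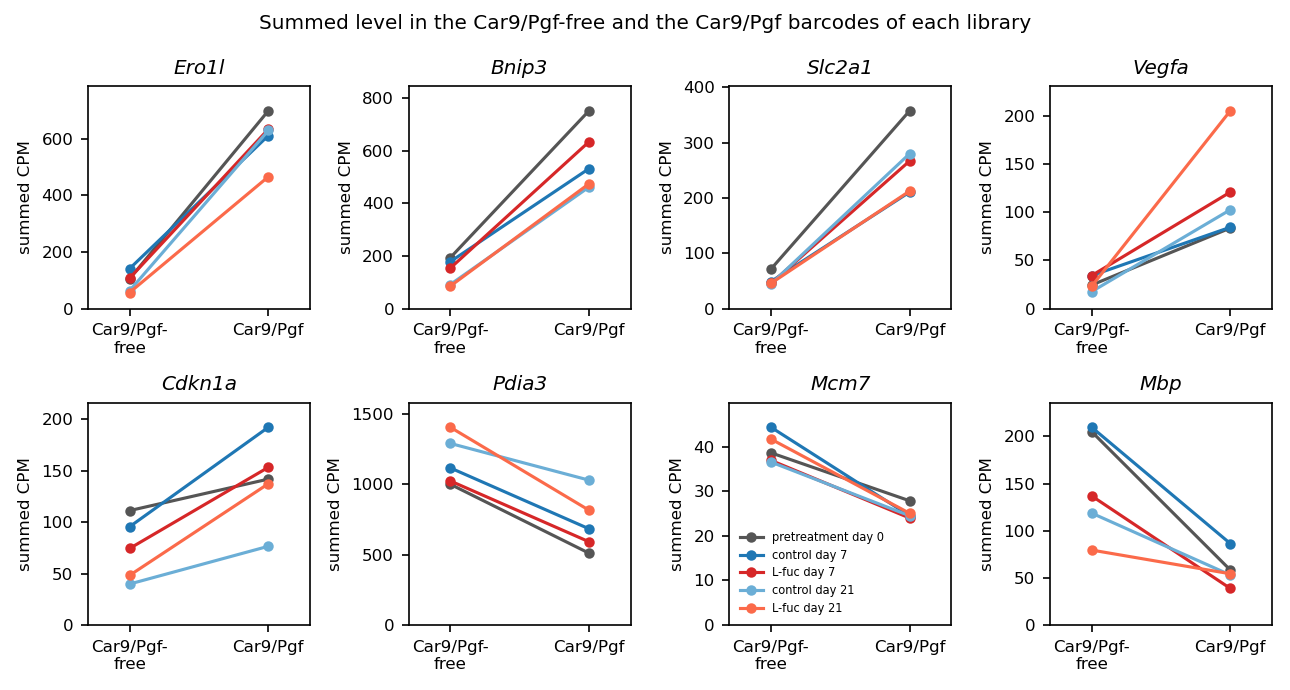
Summed level (CPM, linear axes from 0) of 8 genes in the Car9/Pgf-free and the Car9/Pgf barcodes of each library, with 1 line per library. Ero1l, Bnip3, Slc2a1, Vegfa and Cdkn1a rise and Pdia3, Mcm7 and Mbp fall along every line, and the Vegfa point of L-fuc day 21 (205 CPM) rests largely on 1 barcode.

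The other genes of the 12 with the largest rise were of several kinds. Eno2, a glycolytic enolase, rose by 2.08 ± 0.10 on the log2 scale, and Ankrd37, a known HIF target, by 1.96 ± 0.10. Hmga1 and Hmga2, chromatin proteins of embryonic and tumor cells, rose by 2.05 ± 0.14 and 1.98 ± 0.12. Espn, which bundles actin, rose by 2.05 ± 0.07, and Lrrfip1 by 2.06 ± 0.10. Gpnmb, a glycoprotein of melanosomes and lysosomes, stood at 119, 48.2, 58.7, 51.5 and 51.5 CPM against 6.71, 12.7, 14.0, 6.09 and 11.5 CPM. It rose by 2.53 ± 0.22, although the pigment genes proper were near 0, and the groups did not overlap. Areg, the EGF receptor ligand amphiregulin, stood at 34.8, 59.3, 53.3, 49.5 and 90.8 CPM against 36.1, 14.5, 11.8, 5.83 and 8.77 CPM. It rose by 2.21 ± 0.30, but in pretreatment day 0 the 2 classes stood at nearly the same CPM. All 12 were also called among barcodes with a Sox10 UMI. Below the level of 50 CPM, and chosen after the values were seen, Nppb, a natriuretic peptide gene, stood at 4.35, 15.1, 19.2, 15.8 and 18.6 CPM against 0, 1.17, 0.935, 0.254 and 0 CPM.

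Genes known as HIF targets moved together. Of 33 HIF targets outside glycolysis that were tested, 28 rose and none fell, with a median log2 fold change of 1.22 against -0.05 over all genes. Without Ero1l and Bnip3 these were 26 of 31, with a median of 1.16. The list was chosen with earlier results of these data known, so its count is a description beside the 16% of all genes that rose. Egln3 and Egln1, the oxygen-sensing hydroxylases, rose by 1.80 ± 0.12 and 1.66 ± 0.06. Higd1a, which binds the respiratory chain, and Ndrg1, a stress gene, rose by 1.66 ± 0.06 and 1.67 ± 0.08. P4ha1, P4ha2 and Plod2, hydroxylases that mature collagen, rose by 1.15 ± 0.07, 1.62 ± 0.12 and 1.24 ± 0.08. Errfi1, an inhibitor of the EGF receptor, rose by 1.86 ± 0.10. The 5 genes that did not pass were Ankzf1 (0.23 ± 0.10), Narf (0.25 ± 0.10), Ndufa4l2 (0.89 ± 0.35), Adm (-0.46 ± 0.50) and Lox (-0.70 ± 0.57), the last 2 with the opposite sign for barcodes chosen by Pgf alone. Stc2, Tmem45a and Cox4i2 were too low to be tested.

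The regulators of the pathway split. Of 9 tested, 5 rose and none fell (median 0.44), and 2 of the 5 were Egln1 and Egln3. Vhl, which targets HIF for degradation, rose by 0.44 ± 0.09, Cited2, a competitor for its coactivator, by 0.94 ± 0.13 and Ddit4, an inhibitor of mTOR signaling, by 0.76 ± 0.08. Hif1a, the alpha subunit itself, did not pass the test at -0.20 ± 0.09, nor did its partner Arnt at 0.24 ± 0.11. Epas1, the other main alpha subunit, and Hif3a were too low to be tested. The RNAs of the targets thus differed between the classes while that of Hif1a did not pass.

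Glycolysis rose at nearly every step. Of 22 genes tested, 18 rose and none fell, with a median of 1.27. The uptake of glucose was represented by Slc2a1, above, and its phosphorylation by Hk1 and Hk2, which rose by 1.29 ± 0.09 and 1.25 ± 0.10. Gpi1, Pfkp and Aldoa, the next enzymes in order, rose by 1.57 ± 0.06, 1.68 ± 0.11 and 1.55 ± 0.06. Gapdh stood at 6008, 2205, 3217, 2968 and 4849 CPM against 2490, 1064, 1320, 1213 and 1901 CPM, a rise of 1.43 ± 0.05. It was highest before treatment and in L-fuc day 21, and 1 Car9/Pgf value (control day 7) lay under the highest Car9/Pgf-free value, although each library rose. Ldha, which turns pyruvate into lactate, rose by 0.94 ± 0.04, and Pdk1, which holds pyruvate back from mitochondria, by 1.31 ± 0.11. The lactate exporter Slc16a1 rose by 1.00 ± 0.20, and Slc16a3, the exporter more often tied to hypoxia, did not pass at 0.58 ± 0.29. With barcodes chosen by Car9 alone, the Slc16a3 log2 fold change was -1.96 ± 0.52 (adjusted p = 0.0153 by edgeR). The other 3 genes that did not pass were forms of phosphofructokinase and of the enzymes that set its activity.

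The window before the start of these genes held the HIF core motif often. Of the 46 genes of the 2 lists that rose, 40 were found in the promoter table and 36 of them (90%) had a match in at least 1 window, as against 63.8% of 8430 tested genes. Counted over windows, 75.4% of 61 had a match, as against 57.6% for tested genes and 59.3% of 1763 for all genes that rose. These shares are descriptions, and the CG content of the windows was not matched. Ero1l had no entry in the promoter table.

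Of 26 nuclear genes of the respiratory chain, 1 rose and 6 fell, and of 14 genes of the citric acid cycle none rose and 3 fell, where 16% of all genes rose and 15.9% fell. Ndufa4, a subunit of complex IV, fell by 0.56 ± 0.07 on the log2 scale and Sdhb, of complex II, fell by 0.34 ± 0.07. Cox4i1, the usual subunit 4 of complex IV, rose by 0.16 ± 0.05, a call that was lost with a Sox10 UMI required. There 6 genes of each list fell, beside 21.6% of all genes, and 6 of 26 is near that share. Without that requirement the medians were -0.04 and -0.09, close to that of all genes. Mitochondrially encoded UMIs had a median share of 0.405, 2.24, 2.28, 1.97 and 2.15% in the Car9/Pgf barcodes against 0.494, 3.09, 2.67, 2.20 and 2.60%. That share was lower in the Car9/Pgf barcodes of every library.

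Acid export and vessel ligands were counted beside the 16% of all genes that rose and the 15.9% that fell. Of 8 genes of pH regulation tested, 4 rose and 1 fell. Car13, a cytosolic carbonic anhydrase, rose by 0.48 ± 0.11, and Car12, of the cell surface like Car9, did not pass at 0.57 ± 0.27. Of 10 angiogenic ligands tested, 6 rose and 1 fell. Angptl4 and Apln rose by 1.01 ± 0.27 and 1.13 ± 0.31, Vegfb by 0.48 ± 0.07 and Pdgfa by 0.31 ± 0.05, while Pdgfc fell by 0.89 ± 0.18. Of 5 receptors for PGF and VEGF only the coreceptor Nrp1 was high enough to be tested, at -0.13 ± 0.11, and Kdr was at 0 in the Car9/Pgf barcodes. Flt1, the receptor of Pgf, was also too low to be tested.

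Stress programs of the endoplasmic reticulum moved in different directions. Of 19 genes of the unfolded protein response and of folding, 12 fell and 2 rose (median -0.41), as against 15.9% of all genes that fell. Pdia3, a disulfide isomerase, stood at 511, 684, 592, 1030 and 816 CPM in the Car9/Pgf barcodes and at 1001, 1117, 1024, 1291 and 1406 CPM in the Car9/Pgf-free barcodes. It fell in each library, by 0.54 ± 0.08 on the log2 scale, and control day 21 was the 1 Car9/Pgf value that reached the Car9/Pgf-free range. The chaperones Hspa5, Calr and Sdf2l1 fell by 0.37 ± 0.09, 0.47 ± 0.09 and 0.75 ± 0.16, and Xbp1, a transcription factor of the response, by 0.35 ± 0.08. The 2 that rose were Dnajb9 (0.64 ± 0.08) and P4hb (0.30 ± 0.07), the latter a subunit of the collagen hydroxylases above. Ero1l is not on this list.

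Of 18 targets of Atf4, the factor of the integrated stress response, 9 rose and 3 fell (median 0.31), where 15.9% of all genes fell. Ddit3, Trib3 and Nupr1, stress regulators, rose by 0.98 ± 0.10, 1.06 ± 0.14 and 1.00 ± 0.20, and Atf4 itself by 0.54 ± 0.06. Phgdh and Psat1, enzymes of serine synthesis, fell by 0.52 ± 0.07 and 0.53 ± 0.08, whereas Mthfd2, of folate metabolism in mitochondria, rose by 0.99 ± 0.11. The amino acid transporter Slc7a5 fell by 0.40 ± 0.07.

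Genes of DNA replication fell even though strongly cycling barcodes were already left out of both classes. Of 18 genes tested, 10 fell and none rose (median -0.49), where 15.9% of all genes fell. Mcm7, a subunit of the replicative helicase, stood at 27.8, 24.5, 24.0, 24.5 and 25.0 CPM against 38.6, 44.3, 36.9, 36.5 and 41.7 CPM. The groups did not overlap, and it fell by 0.51 ± 0.08. The count rests on the libraries of day 7: 2 genes fell without control day 7 and 3 without L-fuc day 7, and 7 to 13 when another library was left out. Of 8 mitotic genes tested, 3 fell and none rose, Ccnb2 by 1.08 ± 0.22. The rule itself limits mitotic UMIs in both classes.

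Of 12 genes tested on a list of cell cycle inhibitors and quiescence genes, 8 rose and 2 fell, where 16% of all genes rose and 15.9% fell. The list holds the D cyclins Ccnd1 and Ccnd2, which drive the cycle, and these rose by 0.45 ± 0.08 and fell by 0.29 ± 0.10. Cdkn1a, which encodes the inhibitor p21, stood at 142, 192, 153, 76.5 and 137 CPM against 111, 95.5, 74.4, 39.8 and 48.3 CPM, a rise of 1.14 ± 0.12. Each library rose, least in pretreatment day 0, and the ranges overlapped, with control day 21 the lowest library in both classes. Gadd45a, Ccng2 and Cdkn2b, growth arrest genes, rose by 1.35 ± 0.10, 1.10 ± 0.13 and 0.81 ± 0.07. Btg2 fell by 1.00 ± 0.19, but among barcodes with a Sox10 UMI it stood at 0.28 ± 0.23 and did not pass. Of 11 genes of apoptosis, Bbc3 (0.99 ± 0.15), Bcl2l1 (0.81 ± 0.09) and Mcl1 (0.26 ± 0.06) rose and 2 fell, among them Bad, near the shares among all genes.

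**Figure D2:**
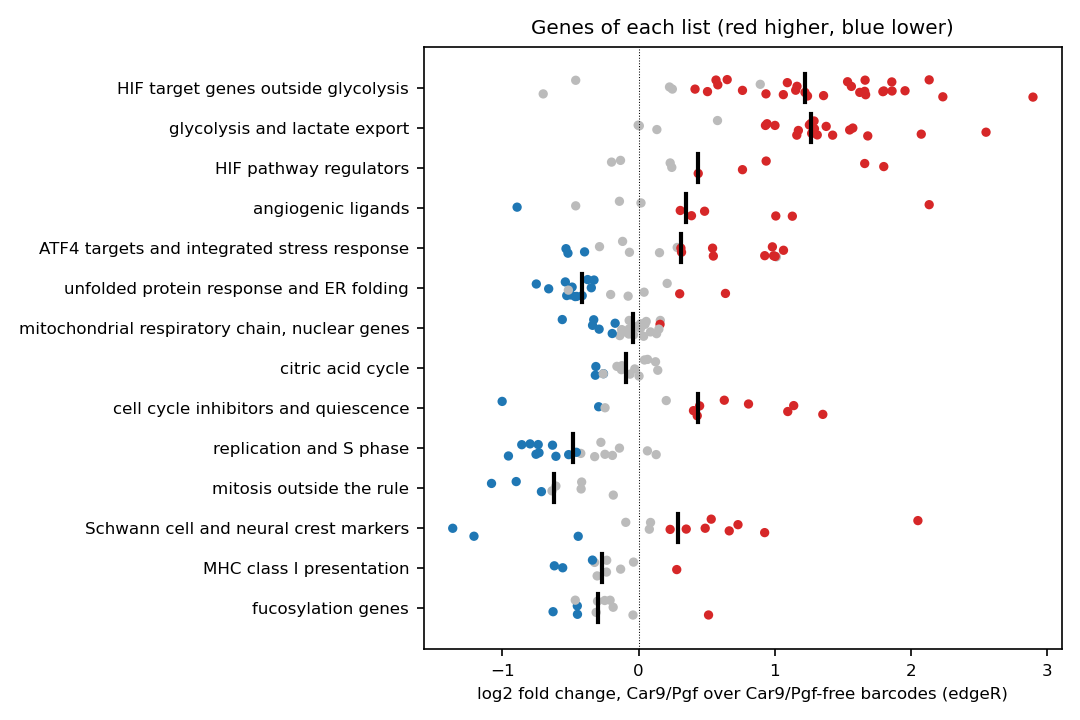
Log2 fold change by edgeR (horizontal axis) of each tested gene in 14 lists, Car9/Pgf over Car9/Pgf-free barcodes, with 1 point per gene, a black bar at the median of the list, and grey points for genes that did not pass an adjusted p of 0.05. The HIF target and glycolysis medians lie to the right of 0 (1.22 and 1.27) and the folding and replication medians to the left (-0.41 and -0.49), with single points such as Lox and Dnajb9 on the other side.

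Within the Schwann and neural crest lineage, 8 of 14 markers rose and 3 fell, where 16% of all genes rose and 15.9% fell. Mbp, which encodes myelin basic protein, stood at 58.3, 86.4, 38.8, 53.0 and 54.3 CPM against 205, 210, 137, 119 and 79.5 CPM. It was lower in each library, with the ranges overlapping through control day 7 in the Car9/Pgf barcodes and L-fuc day 21 in the Car9/Pgf-free barcodes, and the fall was 1.21 ± 0.15 (adjusted p = 0.000254 by edgeR). Erbb3, a neuregulin receptor, fell by 0.44 ± 0.08. Sox10 did not pass at 0.08 ± 0.07. The myelin gene Pmp22 rose by 0.23 ± 0.05 and S100b, a calcium-binding protein of Schwann cells, by 0.49 ± 0.07. Ngfr, Apod and Nes rose by 2.05 ± 0.27, 0.93 ± 0.10 and 0.73 ± 0.08, although Apod stood at -0.03 when barcodes were chosen by Pgf alone. The Ngfr level itself was low, from 2.55 to 15.0 CPM.

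Motility genes rose in 7 of 9 cases. Cd44, a hyaluronan receptor, rose by 1.53 ± 0.13, Lgals3 by 1.65 ± 0.10, S100a4 by 1.18 ± 0.09 and Vim by 0.60 ± 0.04, while Zeb1 fell by 1.00 ± 0.34. Among 21 matrix genes, 3 rose and 4 fell, near the shares of 16% and 15.9% among all genes. Thbs1 (1.45 ± 0.12), Fn1 (1.06 ± 0.24) and Col18a1 (0.24 ± 0.05) rose, and Sparc fell by 0.40 ± 0.06. Mmp2 and Col3a1 fell too, by 2.46 ± 0.46 and 1.94 ± 0.61, beside the fibroblast markers given below. Mt1 and Mt2, metallothioneins that bind zinc, rose by 1.18 ± 0.06 and 1.06 ± 0.07, and the ferritin genes Fth1 and Ftl1 by 0.56 ± 0.05 and 0.61 ± 0.05. They are on a list of metallothioneins and NRF2 targets, of which 6 of 11 tested rose and 2 fell, the latter being Gsr and Prdx1, which act against oxidants. Of 13 immediate early and heat shock genes, 4 rose and 1 fell.

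Of 11 tested genes of ligands that tumor cells show or send to immune cells, 4 rose and 2 fell, the latter being the chemokine genes Ccl2 and Ccl7. With a Sox10 UMI required in both classes, 6 of 9 tested rose and none fell. Mif, a cytokine that acts on macrophages, stood at 3264, 3154, 3167, 2180 and 1909 CPM in the Car9/Pgf barcodes and at 1358, 1562, 1428, 877 and 861 CPM in the Car9/Pgf-free barcodes. No values overlapped, both classes were lowest at day 21, and the rise was 1.35 ± 0.05 (adjusted p = 1.48e-07 by edgeR). Spp1, or osteopontin, rose by 1.12 ± 0.12, Cd47, a signal against phagocytosis, by 0.33 ± 0.08 and Tgfb2, a growth factor of the TGF-beta family, by 0.27 ± 0.08. Of 10 genes of MHC class I presentation, B2m rose (0.28 ± 0.06), and Nlrc5, their transactivator, Tapbp and Erap1 fell by 0.62 ± 0.13, 0.56 ± 0.11 and 0.34 ± 0.10. The class I heavy chains H2-K1 and H2-D1 did not pass, at -0.32 ± 0.15 and -0.13 ± 0.11. Of 11 fucosylation genes, which use the sugar studied here, Fpgt rose (0.51 ± 0.17) and Fut8, Fut11 and Pofut1 fell by 0.63 ± 0.08, 0.45 ± 0.12 and 0.45 ± 0.10. Among all genes, 16% rose and 15.9% fell. With a Sox10 UMI required, 6 of 10 class I and 5 of 11 fucosylation genes fell, where 18.6% of all genes rose and 21.6% fell.

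The 12 genes with the largest fall were Ifitm1, Igfbp4, Ccl4, Ccl3, Cxcl14, Ly6a, AW112010, Coro1a, Ccl8, Ly6e, Rgs1 and Tyrobp. Igfbp4, which binds insulin-like growth factors, stood at 0.870, 1.81, 2.07, 3.06 and 2.15 CPM in the Car9/Pgf barcodes and at 4.20, 6.19, 19.4, 231 and 335 CPM in the Car9/Pgf-free barcodes. The chemokine gene Ccl4 stood at 55.7, 40.3, 13.0, 2.04 and 3.58 CPM against 471, 55.9, 208, 266 and 152 CPM. Both were far higher in the Car9/Pgf-free class of some libraries than of others. Among barcodes with a Sox10 UMI, 5 of these 12 genes were high enough to be tested and 3 still fell (Ly6e, Rgs1 and Tyrobp).

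Markers of other cell types were counted in both classes. The 8 fibroblast markers summed to 235, 191, 204, 378 and 362 CPM in the Car9/Pgf barcodes against 388, 272, 416, 1833 and 1938 CPM, and 5 of 6 tested fell. Their highest gene, Lum, averaged 186 CPM in the Car9/Pgf barcodes. The 8 T cell markers summed to 4.35, 29.5, 11, 3.06 and 11.4 CPM against 239, 57.1, 85.1, 11.4 and 1.65 CPM, and both that were tested fell. The Car9/Pgf-free class of pretreatment day 0 was the highest in T cell markers, and those of day 21 in fibroblast markers. The 9 macrophage markers summed to 1406, 1276, 907, 1846 and 1231 CPM against 1344, 1256, 1129, 2174 and 1297 CPM, with 3 lower and 1 higher of 7 tested. The higher one, Fcer1g, averaged 944 CPM and was the highest of that list. Pericyte markers rose in 3 of 4 cases (Acta2, Tagln and Mcam), and endothelial Cldn5 and Kdr were at 0 in the Car9/Pgf barcodes. The 8 endothelial markers summed to 10.4, 12.1, 9.61, 10.7 and 7.15 CPM against 26.0, 18.4, 12.6, 20.8 and 192 CPM. For the 4 B cell markers it was 0, 0.844, 0.426, 0 and 0.715 CPM against 288, 3.55, 7.27, 0 and 0.548 CPM. Hbb-bs, a hemoglobin gene, fell by 0.37 on the log2 scale but stood at -0.045, not called, with a Sox10 UMI required.

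With both classes limited to barcodes with a Sox10 UMI, a choice made after the values were seen, 27 of 29 HIF targets and 18 of 21 glycolysis genes rose (medians 1.36 and 1.22), 14 of 19 folding genes fell and 14 of 18 replication genes fell. Of all 10253 genes tested there, 18.6% rose and 21.6% fell. These directions were thus found also where Sox10 was present in both classes. Of the 1698 higher genes, 1598 were called there too, and of the 1684 lower genes 1497 were.

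Summed over libraries, Car9/Pgf barcodes differed among themselves in step with their Car9 and Pgf UMIs. This is a description, since the rule uses the same scale. Barcodes just outside the rule, with 1 UMI, had a summed HIF target level of 4019 CPM over all libraries, and those just inside, with 2 UMIs, had 5256 CPM. Barcodes with no UMI stood at 3210 CPM, those with 3 to 4 at 5913 CPM and those with 5 or more at 7756 CPM. Ero1l went from 123 CPM at none over 218, 406 and 518 CPM to 752 CPM, and Vegfa from 32.2 over 43.3, 69.0 and 87.1 to 129 CPM. The folding genes summed to 7358, 7184, 5962, 5500 and 4495 CPM over the same 5 bins and the replication genes to 599, 578, 471, 410 and 352 CPM. Over all libraries depth rose along the bins, with medians of 6794.5, 7504.5, 7544, 8625 and 11833 UMIs. These values are summed over libraries, of which control day 7 holds the most barcodes.

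The bins of day 21 were thin. In control day 21, the 24 barcodes with 2 UMIs had a HIF target level of 3664 CPM, near the 3410 CPM of the 68 with 1 UMI and the 3314 CPM of those with none, while the 54 with 5 or more had 8975 CPM. The median depth there was 22155 UMIs at 2 UMIs, against 6726 UMIs in control day 7, where 2 UMIs went with 5387 CPM. The folding genes of control day 21 stood at 9974 CPM at 2 UMIs and 8296 CPM at none. Its replication genes summed to 498, 562, 663, 493 and 459 CPM over the 5 bins. Only in control day 7 did the replication genes fall at each step. In L-fuc day 21, 9 barcodes had 2 UMIs and 16 had 3 to 4, and in pretreatment day 0 these were 17 and 13, so the steps between these bins carry little weight. At 2 UMIs the HIF target level was lower at each greater median depth over control day 7, L-fuc day 7, L-fuc day 21 and control day 21. L-fuc day 21 stood at 3808 CPM with a median of 17462 UMIs. The 17 barcodes of pretreatment day 0 lay outside that order. L-fuc day 7 stood at 5336 CPM with a median of 11568 UMIs, and pretreatment day 0 at 6673 CPM with 11658 UMIs. The part of depth was not tested.

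**Figure D3:**
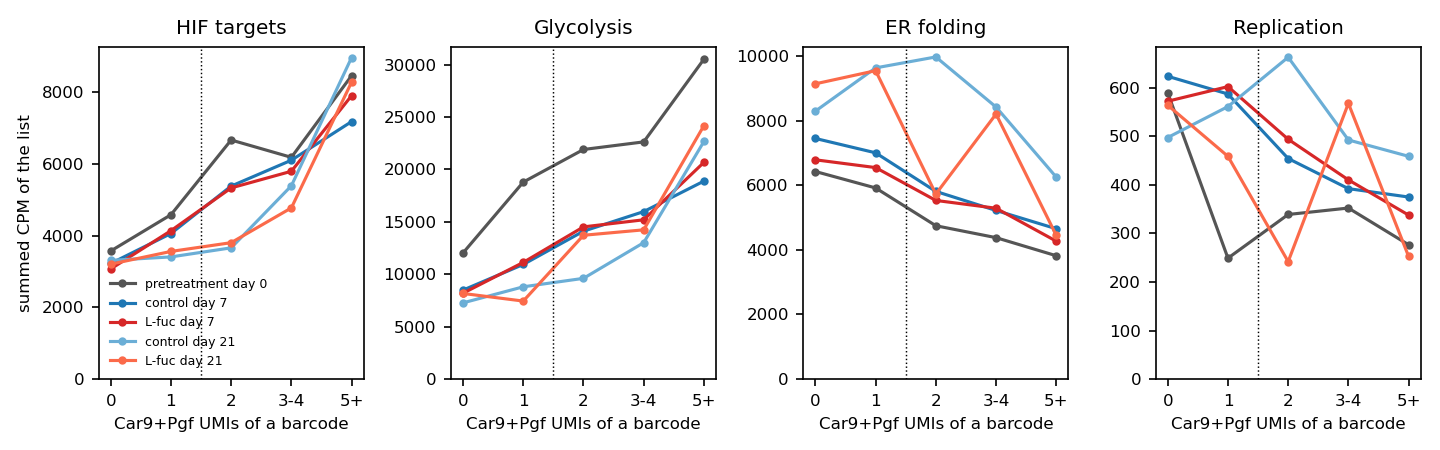
Summed level (CPM) of 4 gene lists over barcodes with 0, 1, 2, 3 to 4 and 5 or more UMIs of Car9 and Pgf, with 1 line per library and a dotted line at the limit of the rule. HIF target and glycolysis levels are highest at 5 or more UMIs in every library, with 7187 CPM of HIF targets in control day 7 and 8975 CPM in control day 21, and bins of L-fuc day 21 hold as few as 9 barcodes.

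The share of Car9/Pgf barcodes was compared between conditions, among cells that passed a CD45 sort according to the labels. They made up 24.3, 22.9, 41.7, 25.9 and 32.0% of the non-cycling tumor-type barcodes. The exact 95% intervals were 22.1 to 23.8% in control day 7 and 39.8 to 43.6% in L-fuc day 7, and 21.6 to 30.7% and 24.7 to 40.0% in control and L-fuc day 21. Intervals cover counting error only, not the spread between mice. L-fuc over control gave a ratio of 1.82 (1.69 to 1.96) at day 7 and of 1.24 (0.858 to 1.76) at day 21, where the interval held 1 with 378 and 153 barcodes in control and L-fuc. With a minimum of 500 genes per barcode the ratio at day 21 was 0.602 (0.420 to 0.855), in the opposite direction, with 376 barcodes of a median of 1516.5 UMIs in L-fuc and 444 of 18047.5 UMIs in control.

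Depth differed between these libraries, with a median of 6633 UMIs per non-cycling tumor-type barcode in control day 7 and 12774.5 in L-fuc day 7. With every barcode thinned to 3000 UMIs the shares were 9.39, 12.7, 20.2, 10.0 and 9.93%, which left out 19, 1224, 184, 9 and 2 shallower barcodes. The ratio was then 1.59 (1.42 to 1.77) at day 7 and 0.991 (0.505 to 1.85) at day 21. In bins of raw depth at day 7, the share was 10.6% in control and 11.9% in L-fuc under 4000 UMIs, with overlapping intervals of 9.32 to 12% and 8.49 to 16.1%. From 4000 to 8000 UMIs it was 23.5% against 33.3%, from 8000 to 16000 UMIs 29.7% against 47.0%, and from 16000 to 32000 UMIs 43.1% (36.6 to 49.7%) against 48.2% (44.7 to 51.8%). The share of L-fuc was the higher one in each bin, with overlapping intervals in the lowest and the highest of these 4. Among cycling tumor-type barcodes, at least 2 UMIs of the pair were found in 16.9, 18.2, 27.5, 30.2 and 26.5%, which is 1.51 (1.20 to 1.90) for L-fuc over control at day 7.

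**Figure D4:**
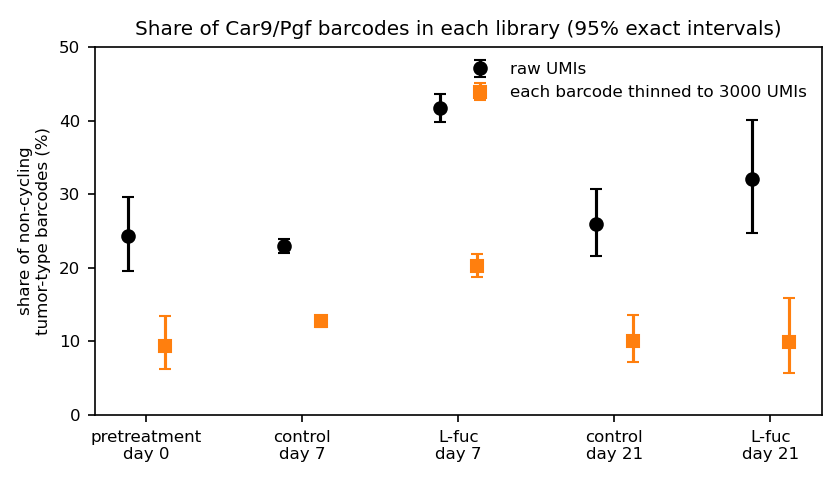
Share (%) of non-cycling tumor-type barcodes that are Car9/Pgf barcodes in each library, with raw UMIs (circles) and with each barcode thinned to 3000 UMIs (squares), and exact 95% intervals for counting error as bars. L-fuc day 7 is the highest library in both (41.7 and 20.2%), and thinning brings L-fuc day 21 to 9.93%, beside 10.0% in control day 21.

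Within the Car9/Pgf barcodes, L-fuc and control of day 7 were compared over 12056 genes that reached 30 UMIs when both were added. Levels are CPM, and log2 ratios were taken after 1 UMI had been added to each count. A ratio of at least 2-fold was found for 204 genes upward (1.69%) and 336 downward (2.79%). MHC class I genes were higher in L-fuc for 10 of 10, with a median log2 ratio of 0.60 against close to 0 for all genes. H2-K1, a class I heavy chain, stood at 431 CPM (421 to 441) in L-fuc and 282 CPM (274 to 290) in control. Psmb9, of the immunoproteasome, stood at 296 against 164 CPM. None of the 10 reached 2-fold, and the same genes had a median ratio of 1.05 in the Car9/Pgf-free barcodes, so the difference was not particular to the Car9/Pgf barcodes.

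HIF targets were higher in L-fuc day 7 for 31 of 35 measured, with a median of 0.22, and glycolysis genes for 21 of 23, also with a median of 0.22. In the Car9/Pgf-free barcodes both medians were close to 0. Bnip3 stood at 634 against 532 CPM, Slc2a1 at 267 against 211 CPM and Vegfa at 121 (116 to 126) against 84.4 (80.0 to 88.9) CPM. The composition of the barcodes moved with this, since 59.9% of the Car9/Pgf barcodes in L-fuc day 7 and 36.0% in control day 7 had 5 or more UMIs of the pair. At exactly 2 UMIs the summed HIF target level was 5336 CPM in L-fuc and 5387 CPM in control. At 3 to 4 UMIs it was 5801 against 6109 CPM, and at 5 or more 7912 against 7187 CPM. For HIF targets the L-fuc level was thus the higher one only in the top bin. Glycolysis genes summed to 14524 against 14113 CPM at 2 UMIs, 15201 against 15983 CPM at 3 to 4 and 20683 against 18892 CPM at 5 or more. The part of depth in this was not tested.

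The largest ratios on the HIF list at day 7 were Cox4i2 (4.75 against 0.905 CPM) and Ndufa4l2 (22.8 against 5.79 CPM). Their UMIs in L-fuc came from 14 and 17 of 1113 barcodes. Pericyte genes moved with them: Rgs5 stood at 12.1 CPM (10.5 to 13.9) against 0.362 CPM (0.133 to 0.788), with 5 barcodes in L-fuc, and Notch3 at 2.19 against 0.121 CPM, with 6 barcodes. Of 7 pericyte and smooth muscle markers measured, 4 were at least 2-fold higher in L-fuc, and their median in the Car9/Pgf-free barcodes was 0.28. The most abundant of the list, Tagln, stood at 141 against 140 CPM. The part of such barcodes in the ratios was not tested.

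Mitotic genes were lower in L-fuc day 7 for 18 of 18, and 14 were at least 2-fold lower (median -1.68). Cenpf, a kinetochore protein, stood at 5.84 against 21.0 CPM, and Birc5, or survivin, at 2.92 against 11.2 CPM. The median was -1.53 in the Car9/Pgf-free barcodes, so both non-cycling classes moved together. It was -1.34 when barcodes with any UMI of the 4 cycling genes were left out. The limit on these genes is a raw count of UMIs, while median depths were 14115 UMIs in L-fuc and 7747 in control, and the part of depth was not tested. At that limit, 411 of 3079 tumor-type barcodes in L-fuc and 1387 of 10055 in control were cycling. Replication genes had a median of -0.08. T cell markers were at least 2-fold lower in L-fuc for 7 of 7 and macrophage markers for 7 of 9, whereas in the Car9/Pgf-free barcodes their medians were 0.62 and -0.43. Hemoglobin genes were higher, with Hbb-bs at 1064 against 382 CPM, found in 1002 of 1113 barcodes in L-fuc and in 850 of 1989 in control, and with a log2 ratio of 1.50 in the Car9/Pgf-free barcodes as well.

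The genes with the most extreme ratios at day 7 were mostly immunoglobulin segments. Upward they were Igkv12-41, Cck, Igkv9-124, Ighg2b and Igkv4-62, and downward Igkv15-103, Igkv8-19, Igkv14-126, Igkv8-27 and Ighv1-14. All 1104 UMIs of Igkv15-103 came from 1 barcode of control day 7, and 101 of 104 UMIs of Cck, a peptide hormone gene, from 1 barcode of L-fuc. For 4 of the 10 genes, most UMIs were held by 1 barcode. Igkv12-41 was spread over 72 barcodes, with a log2 ratio of 6.65 in the Car9/Pgf-free barcodes also.

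At day 21, with 49 and 98 barcodes, 179 of 8741 genes were at least 2-fold higher in L-fuc (2.05%) and 124 lower (1.42%), while thinned to 3000 UMIs these were 48 and 70 of 2342. The medians were 0.02 for HIF targets, -0.05 for glycolysis and -0.11 for MHC class I, so the ratios of day 7 were not seen here. Vegfa stood at 205 (182 to 230) against 103 (88.8 to 118) CPM, with the single barcode given above. Replication genes were lower for 15 of 17 (median -0.64), while in the Car9/Pgf-free barcodes the median was 0.20. Folding genes were lower for 15 of 18 (-0.34, against 0.12). Only 2 mitotic genes were measured. Matrix genes were higher for 16 of 19 (median 0.55, and 0.36 in the Car9/Pgf-free barcodes), 6 of them at least 2-fold.

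A single barcode of L-fuc day 21 held 340 of 346 UMIs of Col1a1, all 205 of Col6a2, all 128 of Cilp, all 91 of Meg3 and all 70 of Lox, which were the 5 highest ratios. Without it 14 matrix genes still reached 30 UMIs, with a median of 0.09 and none of the 14 past 2-fold. The HIF target median was -0.08, and 131 genes were at least 2-fold higher. The replication median was -0.60, close to its value with the barcode. The 5 lowest ratios were those of Tex101, Akr1cl, Col9a3, Cxcl1 and Cenpf. Of these, 67 of 68 UMIs of Akr1cl came from 1 barcode of control day 21, and Cxcl1, a neutrophil chemokine, was found in 21 of 98 barcodes there, at 207 CPM (187 to 228) against 27.2 CPM (19.2 to 37.3) in L-fuc.

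**Figure D5:**
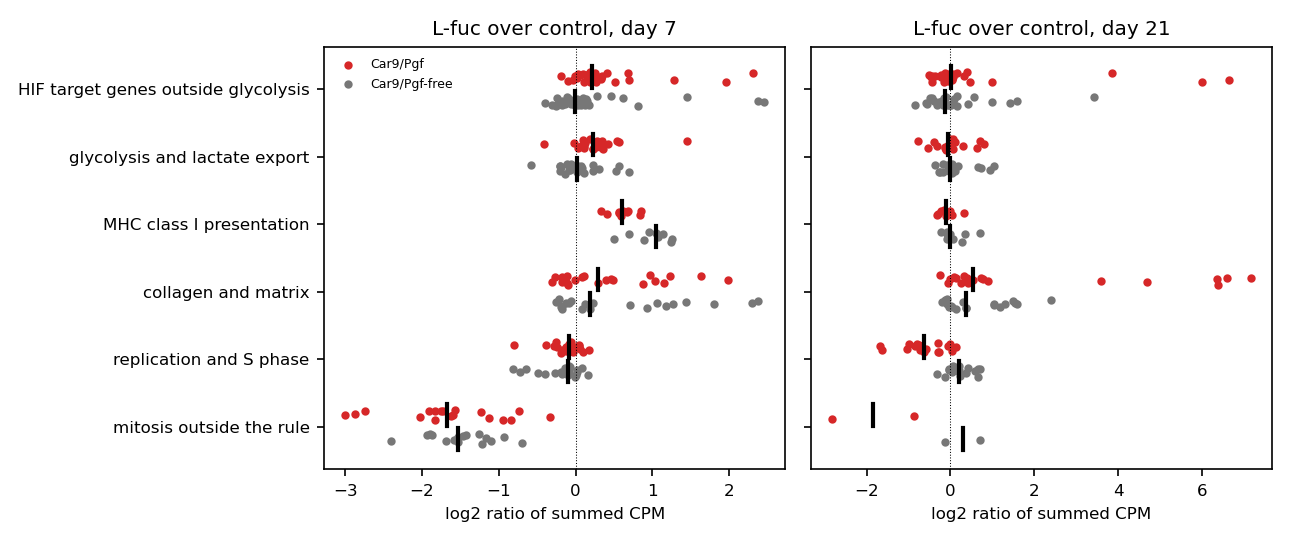
Log2 ratio of L-fuc over control in summed CPM (horizontal axis) for each gene of 6 lists at day 7 (left) and day 21 (right), in the Car9/Pgf barcodes (red) and the Car9/Pgf-free barcodes (grey), with black bars at the medians. Mitotic points lie left of 0 and MHC class I points right of 0 in both classes at day 7, and without 1 barcode none of the 14 matrix genes still measured in the Car9/Pgf barcodes is past 2-fold at day 21.

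The controls were also set against each other, with unequal depth. Control day 7 was at least 2-fold higher than pretreatment day 0 for 837 of 11213 genes (7.46%) and lower for 374 (3.34%), with 1149553 UMIs in pretreatment. With a pseudocount of 5 UMIs these were 123 and 1190, and thinned to 3000 UMIs 710 and 829 of 9553, so the balance turned. Glycolysis genes were lower at day 7 for 19 of 23 (median -0.44, and -0.22 in the Car9/Pgf-free barcodes) and HIF targets for 23 of 34 (-0.22, against 0.03). Hbb-bs, Hba-a1, Igkv15-103, Igkc and Hbb-bt were the highest, with no UMI in pretreatment. Among the 5 lowest were Ccl24, Inhba, Clec4e and Slc7a2. The 282 UMIs of Ccl24 in pretreatment came from 4 of 72 barcodes.

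Control day 21 was at least 2-fold higher than control day 7 for 674 of 11281 genes (5.97%) and lower for 457 (4.05%), with a median of all genes at 0.18 on the log2 scale. With TMM scaling these were 416 and 584, so the balance turned. Relative to that shift, the HIF target median (0.17) was no higher, that of glycolysis genes (0.00) lay under it and that of MHC class I genes (0.81) above it, and the last had a median of 0.78 in the Car9/Pgf-free barcodes. The 5 highest ratios were Igkv3-4, Akr1cl, Stk32b, Clca3a2 and Cxcl1, and the 5 lowest Hbb-bs, Hbb-bt, Ccl5, Hba-a1 and Mcpt1. Cxcl1 went from 7.78 CPM (6.49 to 9.24) to 207 CPM, and from 8.27 to 194 CPM in the Car9/Pgf-free barcodes. Hbb-bs went from 382 to 3.06 CPM.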

How the data were processed

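Droplet libraries (10x Genomics) of pooled SW1 tumors were deposited as counts of UMIs per gene and barcode, without normalization. The submitters' processing notes name Cell Ranger 3.0 and Seurat 4.0 and the build mm10. The header of the deposited gene expression matrices names Cell Ranger 7.1.0. The authors deposited T cell receptor contigs per barcode, which were matched to barcodes of the same pool.

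The barcodes were chosen by the 6 conditions on the deposited counts, and doublets were marked by Scrublet (scanpy 1.11.5) but not removed. The members and the 36 gene lists were chosen with earlier results of these data known. UMIs were summed per library and class, giving 10 sums, and tested by edgeR 4.0.16 (R 4.3.3) with its default filter on low counts, TMM scaling, the library as a block, the quasi-likelihood test and Benjamini-Hochberg adjustment. Both classes come from the same library, which is where the pairing comes from. Libraries are pools of tumors, so p-values measure the spread between these 5 pools. Plain CPM had a median log2 ratio between -0.22 and -0.16 in the 5 libraries, which TMM scaling removed. On counts simulated with a single dispersion of 0.00997 for every gene, 98.99% of genes changed by 1 on the log2 scale were recovered. Genes that vary more between libraries were not simulated, so this share does not apply to them. Conditions have 1 library each and were compared as log2 ratios of CPM after 1 UMI had been added to each count, for genes that reached 30 UMIs over both libraries, with exact Poisson intervals for levels and exact Clopper-Pearson intervals for shares (95%). T cell barcodes had at least 500 genes and 2 UMIs of receptor genes.

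Named were the label genes, the 12 genes with the largest change each way (at least 50 CPM in a class, the same direction in every library), members of the lists, and the 5 highest and lowest ratios of each condition comparison. Genes of the rule, mitochondrial genes and models named Gm or Rik were left out. Some genes that these rules name are not reported here. Alternatives covered the limits of the rule, depth, doublets, scaling, filters and single libraries.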

Additional observations from a re-analysis of the deposited data

Results flagged for a closer look

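Within the Car9/Pgf barcodes, 2 lists had median log2 ratios of L-fuc over control of opposite sign at day 7 and day 21. For glycolysis and lactate export the median was 0.22 at day 7 and -0.047 at day 21. For MHC class I presentation it was 0.60 at day 7 and -0.11 at day 21. With 1 library per condition the difference between the days was not tested, and the libraries of day 21 held 98 and 49 Car9/Pgf barcodes.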

How the results depend on the processing

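With 1 pool per condition, the conditions carry no estimate of the spread between mice, and the libraries of day 0 and day 21 are small. The shares moved with the limits of the rule and with thinning. Across bins of raw depth they rose steadily in some libraries, but not in pretreatment day 0 or control day 21. With at least 1 UMI of Car9 and Pgf they were 31.4, 39.1, 54.9, 43.9 and 48.4% in the order of libraries, and with at least 3 UMIs 18.6, 15.9, 34.4 and 19.6% in the first 4. Thinned to 3000 UMIs they were 9.39, 12.7, 20.2, 10.0 and 9.93%. With at least 2000 genes they were 30.9, 25.4 and 46.3% in the first 3 libraries, and with at least 500 genes 17.6, 18.9 and 31.3%, and 13.3% in L-fuc day 21. Among barcodes with a Sox10 UMI they were 30% in pretreatment and 44.7% in L-fuc day 7. Without C1q UMIs they were 24.2% in control and 43.7% in L-fuc day 7, and L-fuc day 7 had 39.7% at up to 20% mitochondrial UMIs and 39.8% with no limit on cycling genes. The ratio of L-fuc over control at day 7 was 1.40 at 1 UMI, 2.17 at 3 UMIs, 1.66 at 500 genes and 1.59 after thinning, above 1 in each, and at day 21 it was 0.602 (0.420 to 0.855) at 500 genes.

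Without the replicate block, 474 genes were higher and 211 lower in the Car9/Pgf barcodes, and DESeq2 called 1102 lower. Leaving out 1 library gave 1045 to 1543 higher and 681 to 1455 lower genes, with 1045 and 681 without L-fuc day 7, and 777 lower without control day 7. Of the 1698 higher genes, 1494 were also called against depth-matched Car9/Pgf-free barcodes, and of the 1684 lower genes 1168, in a fit of 4 libraries without L-fuc day 21, which had 9 matched barcodes. No C1q UMI was found in 62, 689, 741, 72 and 33 of the Car9/Pgf barcodes, in the order of libraries. With both classes limited to barcodes without C1q UMIs, 1264 of the higher genes and 1084 of the lower genes were also called. Btg2 stood at 0.28 with a Sox10 UMI required and barcodes chosen by Pgf alone put Apod at -0.031, Adm at 0.40 and Lox at 0.41, all of the opposite sign and none called there. Adm ranged from -0.93 to 0.17 with 1 library left out, the latter without control day 21. Sox10, which was not called, stood at -0.051 with depth-matched barcodes, -0.018 by Pgf alone and -0.029 with a Sox10 UMI required. Slc16a3 stood at -1.96 by Car9 alone, where it was called lower. The cause was not tested.

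Counts of 2-fold genes between conditions moved with the UMI minimum and the pseudocount. At 100 UMIs they were 79 higher and 123 lower for L-fuc at day 7, 36 and 30 for L-fuc at day 21, 511 and 137 for control day 7 over pretreatment, and 359 and 180 for control day 21 over day 7. With a pseudocount of 5 UMIs, 66 were lower for L-fuc at day 21, and the counts were 123 and 1190 for control day 7 over pretreatment and 1195 and 121 for control day 21 over day 7, since a pseudocount weighs more in the smaller library. Thinned to 3000 UMIs, they were 91 and 158, 48 and 70, 829 lower and 1258 higher in the same order of comparisons. With the rule applied after thinning they were 70 and 133 for L-fuc at day 7, 1449 lower for control day 7, and 1620 and 291 for control day 21, and 19 and 36 of 663 genes for L-fuc at day 21, with 13 barcodes in L-fuc. Without any cycling UMI, 196 genes were lower for L-fuc at day 7. TMM scaling gave 416 higher and 584 lower for control day 21. Between conditions, a fit of treatment with the day as a block was not run. The Sox10 alternative, the barcodes shared between libraries, the higher doublet rate, the rule after thinning, the limit of no cycling UMIs and the single barcode of L-fuc day 21 were chosen after seeing the data.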
